A study of Homo sapiens with 6 samples.

Results

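RNA from MOLM-13, an established human cell line of acute myeloid leukaemia (AML-M5, the monocytic type), was compared between cells labelled as CaMK2D knockout (KO) after 3 days of doxycycline and control cells that received none. The comparison used 4 of the 6 libraries of the study, 2 per group, and every gene with enough counts, which was 14601 of the 24878 genes in the table. The KO cells carried a doxycycline-inducible CaMK2D-KO vector. The labels call the other cells controls, name no vector for them and list no doxycycline. Vector, knockout and doxycycline therefore changed together between the groups, and their effects cannot be told apart. The remaining 2 libraries, from KO cells after 5 days, entered the model only to estimate the spread. Whether the 2 libraries of a group were grown as separate cultures is not given in the labels. The p-values therefore speak only to the spread among these libraries, and that spread may be technical.

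CaMK2D encodes the delta isoform of calcium/calmodulin-dependent protein kinase II, a serine/threonine kinase that calcium-loaded calmodulin switches on. The holoenzyme is a ring of subunits that phosphorylate each other and so stay active after calcium has fallen. In heart muscle the delta isoform acts on calcium channels and pumps, and in myeloid cells CaMKII has been tied to growth signalling and to the innate immune response.

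Total counts ranged from 15456770 to 21081298 over the 4 libraries, and 3 counts in the shallowest of them corresponded to 0.194 CPM, counts scaled to a common library size. Levels below are CPM scaled with TMM factors, given for control libraries 1 and 2 and then day 3 libraries 1 and 2. Mitochondrially encoded transcripts took 3.05% and 2.52% of the counts in the controls and 0.868% and 0.929% at day 3. The chi-square per degree of freedom between the libraries of a pair was 37.7 for the controls and 17.4 at day 3, so the libraries of a pair differed by more than sampling noise. The targeted gene was examined first. CAMK2D (chr4:113451032-113761927, GRCh38) had 23 and 14.5 CPM in the control libraries and 14.7 and 15.6 CPM at day 3. Control library 1 stood above the other 3 libraries, which lay close together, and the groups overlapped. The difference did not pass the test (log2 fold change -0.30, SE 0.23, edgeR adjusted p = 0.437), and without control library 1 it took the opposite sign, at 0.068. The mRNA level thus did not separate the groups, and the knockout is taken from the labels. Of 14 tested CaMK family and calmodulin genes, CAMK2D among them, 0 passed the threshold with edgeR, DESeq2 or limma, and 0 had an unadjusted edgeR p under 0.05.

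A gene was called where edgeR's adjusted p was under 0.05. In all, 1710 genes were called, 11.7% of those tested, with 835 higher (5.72%) and 875 lower (5.99%) at day 3. The median log2 fold change was 0.82 among called rises and -1.02 among called falls. The groups did not overlap in any of the 835 called rises or 875 called falls, so such a gap sets no called gene apart. At least 2-fold changes were seen in 276 genes called higher and 449 called lower, and at least 8-fold changes in 17 and 64. Over all tested genes the median was -0.000118, and the middle of the distribution ran from -0.42 to 0.36 between the quartiles. Genes called higher took 7.12% and 7.68% of the counts in the controls and 12.2% in each day 3 library, while genes called lower went from 12.8% and 11.7% to 5.44% and 5.54%. Leaving out a library changes the estimate of the spread as well as the fold change, and which of these cost a gene its call was not tested. The log2 fold change of ENO1 was 0.74 in the full fit, and 0.74 and 0.77 without day 3 library 1 and library 2. That of MYC was 0.72 in the full fit and 0.57 without day 3 library 2. Without day 3 library 1 there were 282 calls, without library 2 there were 333, without control library 1 there were 1059 and without control library 2 there were 1906. A subset of 225 genes, 1.54% of those tested, was called in the same direction in the full fit and in each of 6 fits that left out a library, 89 higher and 136 lower. These 225 are called the consistently called genes below, and all genes named with a rise or fall belong to them unless the lost fits are given.

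**Figure D1:**
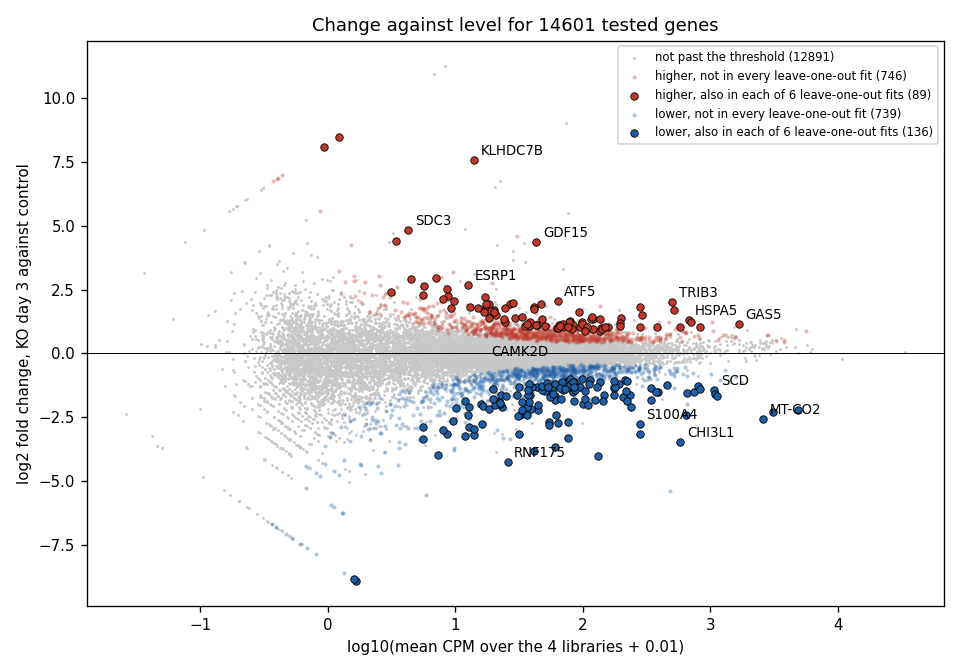
Each point is 1 of the 14601 tested genes, with its mean level over the 4 libraries on a log10 axis and its log2 fold change at day 3 against control. Red and blue points were called higher and lower, and outlined points are the 89 and 136 genes also called in each of the 6 fits that left out a library. The straight rows of points at the lower left and upper left are genes with 0 counts in a group.

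The largest rises among consistently called protein-coding genes at a mean of at least 5 CPM included regulators of stress, enzymes and surface proteins. KLHDC7B, a kelch-domain protein, had 2 and 3 counts in the controls and 433 and 607 counts at day 3, or 0.129 and 0.144 CPM in the control libraries and 22.6 and 33.4 CPM at day 3. It was near the floor in the controls and plainly counted in each day 3 library (log2 fold change 7.60, SE 0.39, edgeR adjusted p = 0.000208). GDF15, a secreted stress cytokine of the TGF-beta family, had 3.79 and 4.22 CPM in the control libraries and 73.5 and 90.8 CPM at day 3. ESRP1, an RNA-binding protein known for directing epithelial splicing, had 3.60 and 3.21 CPM in the control libraries and 17.4 and 26 CPM at day 3 (log2 fold change 2.67, SE 0.25, edgeR adjusted p = 0.00151). CD38, the ectoenzyme that consumes NAD on the surface of haematopoietic cells, had 6.17 and 9.21 CPM in the control libraries and 24.9 and 29 CPM at day 3 (log2 fold change 1.80, SE 0.22, edgeR adjusted p = 0.00371). Enzymes of small-molecule metabolism stood in this group as well. SDSL, a serine dehydratase-like enzyme, went from 0.964 and 2.16 CPM to 15.9 and 9.07 CPM, PECR, a peroxisomal enoyl-CoA reductase, from 5.33 and 6.86 CPM to 23.4 and 33.4 CPM, and THNSL1, a threonine synthase-like protein, from 3.02 and 2.92 CPM to 13.1 and 12.8 CPM. SEC11C, a catalytic subunit of the signal peptidase in the endoplasmic reticulum (ER), went from 15.5 and 23.5 CPM to 72 and 76.4 CPM. SH3PXD2A, a podosome scaffold, went from 14.5 and 8.10 CPM to 49 and 36.5 CPM and VILL, a villin-like protein, from 5.59 and 8.72 CPM to 26.5 and 29.3 CPM. Numbered open reading frames and clone-based names were left out of this ranking, among them C10orf143 at a log2 fold change of 2.07. The other members of the 20 named by the rule were ZCWPW1, MORN4, ATF5, TRIB3, NQO1, QRICH2, STOX2, HYOU1, PCNX2 and KCNE1, with log2 fold changes of 1.78 (KCNE1) to 2.64 (ZCWPW1). In each of these genes both day 3 libraries lay above both controls, which the rule for naming required. KCNE1 has a near-identical copy, KCNE1B, which was also called higher, and reads of the pair may be split between them. Exons of PECR, ZCWPW1, ATF5 and PCNX2 overlap those of other genes, and as strand is not stated their reads cannot be told apart. The same holds for many genes named below, among them FADS2, RGS18, FCGR2A, EPHA1, ITGA7, HVCN1, ZNF219, CFLAR, DRAM1 and AC008894.2. Overlaps are not given for every gene.

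The largest falls included receptors, transporters and secreted proteins. RNF175, a RING finger protein, had 40.2 and 57.4 CPM in the control libraries and 1.51 and 3.52 CPM at day 3 (log2 fold change -4.28, SE 0.49, edgeR adjusted p = 0.00482). ROS1, a receptor tyrosine kinase, had 16 and 11.8 CPM in the control libraries and 1.30 and 0.440 CPM at day 3. AQP3, a channel for water and glycerol, had 58.9 and 95.5 CPM in the control libraries and 4.74 and 6.16 CPM at day 3 (log2 fold change -3.82, SE 0.30, edgeR adjusted p = 0.00127). NAV3, a microtubule-associated neuron navigator, had 153 and 128 CPM in the control libraries and 10.3 and 17.6 CPM at day 3, and HAL, which breaks down histidine, had 29.6 and 21.1 CPM in the control libraries and 3.02 and 2.53 CPM at day 3. SLCO4C1, an organic anion transporter, had 26.5 and 16.8 CPM in the control libraries and 2.03 and 2.47 CPM at day 3, and the scavenger receptor CD36 had 69.9 and 43 CPM in the control libraries and 8.39 and 4.12 CPM at day 3. The day 3 values of these genes lay below every control value, as in every called fall, and for most of them the gap was several-fold. ECM1, a secreted matrix protein, and S100A4, a calcium-binding protein, had the smallest SEs of the 20 falls. ECM1 went from 108 and 116 CPM to 16.9 and 16.3 CPM (log2 fold change -2.75, SE 0.14, edgeR adjusted p = 0.000208) and S100A4 from 428 and 547 CPM to 67.6 and 73.8 CPM (log2 fold change -2.79, SE 0.15, edgeR adjusted p = 0.000208). RGS18, a regulator of G protein signalling, PTPRO, a receptor tyrosine phosphatase, OLIG1, a basic helix-loop-helix transcription factor, and ADORA1, the adenosine A1 receptor, had log2 fold changes of -3.16, -2.90, -2.95 and -3.36. FADS2, CHI3L1, KIT, TLR4, SOCS1, RNASE2 and RNASE3 complete the 20, and MPO, with the numerically larger log2 fold change of -5.41, is not among them because the call was lost without either control library and without either day 3 library.

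**Figure D2:**
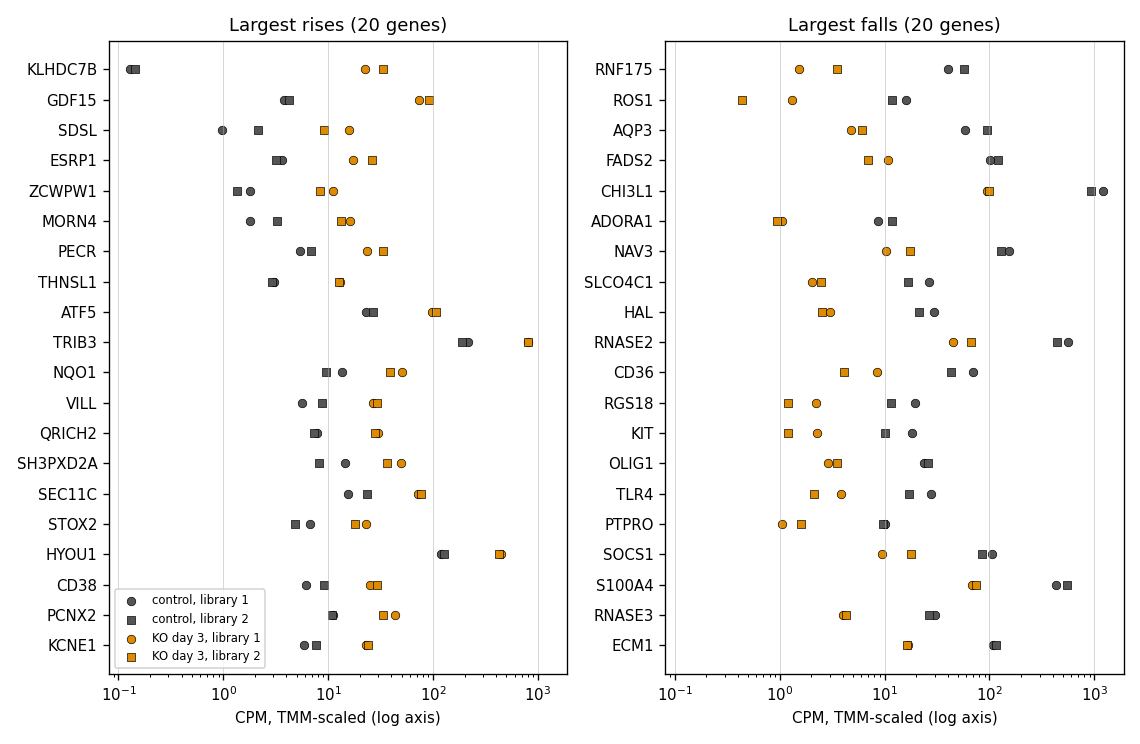
TMM-scaled CPM on a log axis for the 20 largest rises and 20 largest falls among consistently called protein-coding genes, with controls in grey and day 3 in orange, circles for library 1 and squares for library 2. In each row the day 3 points lie on 1 side of both controls, as the rule for naming requires, and the distance is largest for KLHDC7B on the left and RNF175 on the right.

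Ranked by the difference in mean FPKM, a level scaled to gene length and depth, other genes led the rises among consistently called protein-coding genes. The mean level of TRIB3 went from 58.2 to 226 FPKM, that of TXN, the cytosolic thioredoxin, from 161 to 322 FPKM and that of HSPA5 from 98.8 to 239 FPKM. TCEA1, the elongation factor that rescues stalled RNA polymerase II, went from 56 to 176 FPKM, and in CPM it had 248 and 248 CPM in the control libraries and 820.1 and 773 CPM at day 3 (log2 fold change 1.68, SE 0.12, edgeR adjusted p = 0.000451). The mitochondrial protease LONP1, the mitochondrial chaperone HSPA9 and the ornithine decarboxylase ODC1 went from 83.1 to 189.7 FPKM, 66.9 to 132 FPKM and 37.4 to 95.3 FPKM. LONP1 and RPL36 overlap in their exons, so reads of the pair cannot be told apart. The largest losses in FPKM among consistently called protein-coding genes were those of 6 mitochondrially encoded mRNAs, AZU1, RNASE2, S100A4 and CHI3L1. RNASE2 (chr14:20955452-20956436), a secreted ribonuclease of granulocytes, went from 664 to 71.5 FPKM. The long non-coding AL355922.1 (chr14:20919361-20920299), which lies between RNASE3 (chr14:20891399-20892348) and RNASE2, went from 734 to 44.2 FPKM. Whether reads were shared between these genes was not tested.

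**Figure D3:**
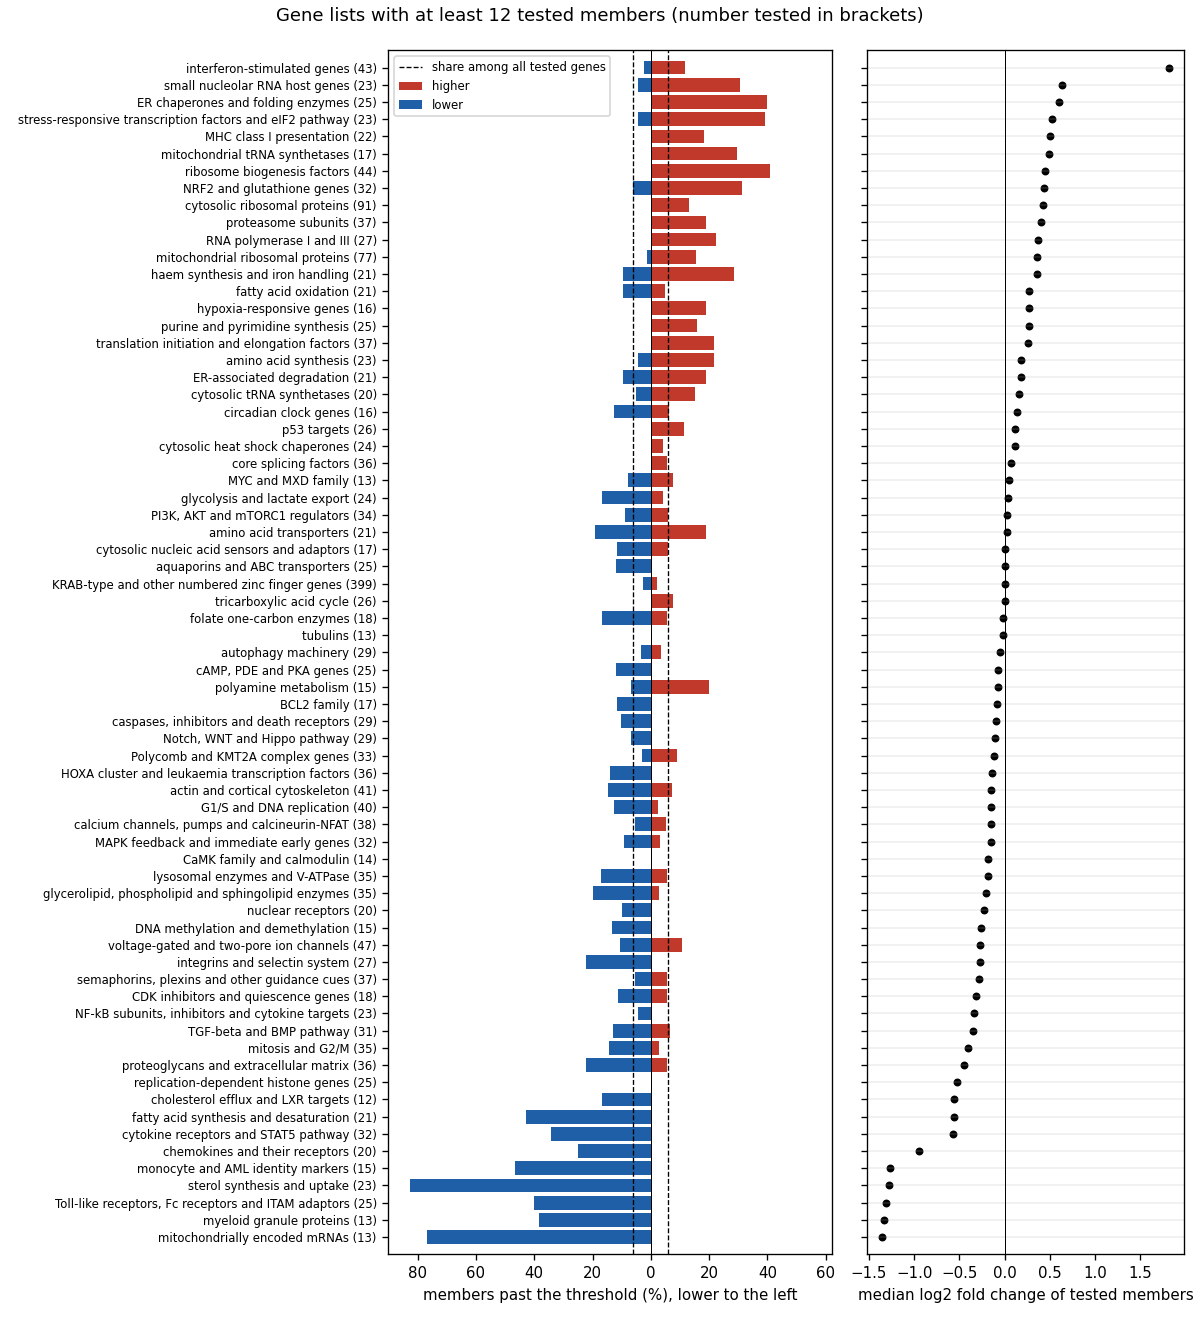
Bars give the percentage of tested members of each of 69 gene lists called higher (red, right) or lower (blue, left), beside the list's median log2 fold change (points). The dashed lines mark the shares among all tested genes, 5.72% and 5.99%. Rows are ordered by the median, from interferon-stimulated genes at the top (1.82) to mitochondrially encoded mRNAs at the bottom (-1.36). The lists of ER chaperones, of stress regulators and of ribosome biogenesis factors lie near the top with few or no falls. That of ER-associated degradation has a median of 0.18, with 2 of 21 members called lower. Lists of surface receptors and lipid synthesis lie near the bottom with few or no rises.

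The 78 gene lists were read against these background shares, and a list's count and median describe it without a test. The background shares were not matched to the level of a list. They rose with the level, from 0.315% higher and 0.734% lower under 1 CPM to 10.1% and 10.2% over 100 CPM. A list of abundant genes can thus exceed the background through its level. The first lists are those of protein folding in the ER. Secreted and membrane proteins fold in the ER with the help of chaperones such as HSPA5, and their unfolding switches on the sensors ERN1, EIF2AK3 and ATF6. Of 25 tested ER chaperones and folding enzymes, 10 were called higher and 0 lower, with a median of 0.60 against -0.000118 over all genes, and 2 of the 10 were consistently called. HSPA5, the abundant ER chaperone also known as BiP, had 399 and 374 CPM in the control libraries and 932 and 992 CPM at day 3. HYOU1, its nucleotide exchange partner, had 119 and 127 CPM in the control libraries and 448 and 428 CPM at day 3. The libraries of each group lay close together and the groups were far apart (log2 fold change 1.31, SE 0.13, edgeR adjusted p = 0.00192 for HSPA5 and log2 fold change 1.83, SE 0.12, edgeR adjusted p = 0.000377 for HYOU1). The other 8, namely DNAJB9, SDF2L1, MANF, DNAJB11, PDIA4, DNAJC10, CANX and HSP90B1, had log2 fold changes of 0.60 to 1.15, and each lost its call without at least 1 of the day 3 libraries. Of 21 genes of ER-associated degradation, the route that returns misfolded proteins to the cytosol, 4 were called higher and 2 lower, and SEL1L, the scaffold of the ubiquitin ligase HRD1, had 101 and 85.8 CPM in the control libraries and 197 and 175 CPM at day 3 (log2 fold change 0.99, SE 0.13, edgeR adjusted p = 0.00499). In the list of cytosolic heat shock chaperones 1 of 24 genes was called, HSPD1, at 0.50. HSPD1 encodes a mitochondrial chaperone, and its call was lost in 5 of the 6 fits without a library.

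The promoter windows of these chaperones, taken from RefSeq (GRCh38.p14) from 250 bases before to 50 bases after each start, are shown here because 10 genes of the list were called higher. The ER stress element, CCAAT, 9 bases of any kind and CCACG on either strand, was searched after the values were seen. It occurred in 27.3% of 33 windows of the list and in 0.119% of the 15130 windows found for 10453 tested genes. It was in 6 of 910 windows of genes called higher (0.659%) and in 0 of 1031 windows of genes called lower. Windows of HSPA5, CANX and HSP90B1, which are in the list, are among these 6, so the share is not separate from that of the list. The matches hold the shorter CCAAT box, which 34.6% of all windows contain. A narrower search, of the bases before the start and with some genes left out, found the element in 7 genes of the list. Of these, HSPA5, CANX and HSP90B1 were called higher and ERO1B, PDIA6, CALR and CRELD2 were not called. The 27.3% counts whole windows. The 3 stretches below run 5′ to 3′ along the gene, with the element in capitals, and are a description of these letters only.
HSPA5, chr9:125241371-125241429, minus strand: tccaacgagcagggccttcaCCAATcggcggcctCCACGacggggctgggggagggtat
CANX, chr5:179698758-179698816, plus strand: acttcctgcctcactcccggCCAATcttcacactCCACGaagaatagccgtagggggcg
HSP90B1, chr12:103930196-103930254, plus strand: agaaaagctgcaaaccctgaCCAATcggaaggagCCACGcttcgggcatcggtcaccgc

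In the integrated stress response kinases phosphorylate eIF2, general translation slows, and the transcription factor ATF4 is translated from mRNA already present. Of 23 tested stress-responsive transcription factors and eIF2 pathway genes, 9 were called higher and 1 lower, and 6 of the 9 were consistently called. ATF5, a leucine zipper factor, had 22.7 and 26.8 CPM in the control libraries and 98.3 and 106 CPM at day 3 (log2 fold change 2.04, SE 0.16, edgeR adjusted p = 0.00101). TRIB3, a pseudokinase that binds ATF4 and AKT, had 214 and 186 CPM in the control libraries and 794 and 803 CPM at day 3 (log2 fold change 2.0, SE 0.13, edgeR adjusted p = 0.000401). The control and day 3 values of these genes were about 4-fold apart with little spread inside a group. DDIT3, the factor CHOP, had 8.93 and 10.7 CPM in the control libraries and 28.7 and 32.1 CPM at day 3, and PPP1R15A, a phosphatase subunit that reverses eIF2 phosphorylation, had 45.8 and 45.8 CPM in the control libraries and 151 and 132 CPM at day 3. SESN2, a leucine sensor upstream of mTORC1, had 124 and 116 CPM in the control libraries and 262 and 285 CPM at day 3, and ERN1, the ER stress kinase and nuclease IRE1, had 30.4 and 34.4 CPM in the control libraries and 65.1 and 73.1 CPM at day 3. The mRNAs of ATF4 and XBP1 did not pass the test, at -0.04 (edgeR adjusted p = 0.864) and -0.14 (edgeR adjusted p = 0.559). Of 23 tested enzymes of amino acid synthesis, 5 were called higher and 1 lower, with a median of 0.18. GOT1, the cytosolic aspartate aminotransferase, went from 67.7 and 62.8 CPM to 162 and 173 CPM (log2 fold change 1.36, SE 0.12, edgeR adjusted p = 0.00135), and PYCR3, a proline-forming reductase, from 15.9 and 16.2 CPM to 38.4 and 46 CPM. ASNS and PSAT1, often used as ATF4 targets, did not pass, at 0.18 (edgeR adjusted p = 0.789) and 0.20 (edgeR adjusted p = 0.332). DDIT3 exons overlap MARS, and ATF5 exons overlap IL4I1 and NUP62.

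Amino acid carriers moved both ways, with 4 of 21 called higher and 4 lower. SLC43A1, a transporter of large neutral amino acids, went from 63.9 and 58.6 CPM to 124 and 146 CPM (log2 fold change 1.14, SE 0.13, edgeR adjusted p = 0.00319), and SLC6A6, the taurine transporter, from 203 and 184 CPM to 59 and 49.7 CPM (log2 fold change -1.83, SE 0.16, edgeR adjusted p = 0.0013). NRF2 is the factor that switches on antioxidant genes, those of glutathione among them. Of 32 tested genes of this programme, 10 were called higher and 2 lower, with a median of 0.44, and 4 of the 10 were consistently called. NQO1, a quinone reductase, had 13.4 and 9.59 CPM in the control libraries and 51 and 38.4 CPM at day 3, and HMOX1, the haem oxygenase, had 0.642 and 1.25 CPM in the control libraries and 5.73 and 4.78 CPM at day 3. FTH1, the heavy chain of the iron store ferritin, had 69.6 and 57.8 CPM in the control libraries and 175 and 167 CPM at day 3 (log2 fold change 1.43, SE 0.15, edgeR adjusted p = 0.0025), and TXN had 198 and 170.0 CPM in the control libraries and 380.5 and 374 CPM at day 3 (log2 fold change 1.03, SE 0.14, edgeR adjusted p = 0.00491). FTH1 has many processed copies and its exons overlap BEST1, so its counts are uncertain. The cystine carrier SLC7A11 was among the 2 members called lower, at -0.49, and lost its call without every library but control library 2. Of 16 hypoxia-responsive genes 3 were called higher and 0 lower. VEGFA, the vascular growth factor, went from 369 and 385 CPM to 789.6 and 769 CPM (log2 fold change 1.05, SE 0.13, edgeR adjusted p = 0.00354), and STC2, a secreted stanniocalcin, from 52.4 and 82.8 CPM to 159.6 and 187 CPM. ODC1, the first enzyme of polyamine synthesis, went from 123 and 98.5 CPM to 302 and 278 CPM (log2 fold change 1.39, SE 0.18, edgeR adjusted p = 0.00525), among 15 polyamine genes of which 3 were called higher and 1 lower.

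Ribosomal RNA is made by RNA polymerases I and III, cut and modified with small nucleolar RNAs, and assembled with ribosomal proteins by a large set of biogenesis factors. Of 44 tested ribosome biogenesis factors, 18 were called higher and 0 lower, and all 44 had a log2 fold change above 0 under the TMM scaling, with a median of 0.45. RRP9, a protein of the U3 small nucleolar particle, had 53.5 and 63.9 CPM in the control libraries and 136 and 139 CPM at day 3 (log2 fold change 1.23, SE 0.14, edgeR adjusted p = 0.0032). EBNA1BP2, a factor of the large subunit, had 47.4 and 46 CPM in the control libraries and 103 and 119.6 CPM at day 3 (log2 fold change 1.25, SE 0.14, edgeR adjusted p = 0.00264). The remaining 16 called factors, among them NOP56, NOP58, DKC1 and NCL, had log2 fold changes of 0.44 (UTP4) to 1.04 (NHP2), and were not consistently called. Of 27 genes of RNA polymerases I and III, 6 were called higher and 0 lower. TAF1D, a subunit of the selectivity factor of RNA polymerase I whose gene also hosts small nucleolar RNAs, had 72.3 and 74.1 CPM in the control libraries and 133 and 139 CPM at day 3 (log2 fold change 0.89, SE 0.12, edgeR adjusted p = 0.00596). Of 91 tested cytosolic ribosomal protein genes 12 were called higher (13.2%) and 0 lower, with a median of 0.42. Among all tested genes over 100 CPM, 10.1% were called higher. The summed level of the ribosomal protein genes was 121000 and 150000 CPM in the control libraries and 176000 and 180000 CPM at day 3. Only RPL22L1, a paralogue of a ribosomal protein, was consistently called among them, going from 65.7 and 75.1 CPM to 131 and 159 CPM. Ribosomal protein genes have many processed copies, so their counts are uncertain.

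Promoter windows of the biogenesis factors are shown because 18 of these genes were called higher and 0 lower. The E-box CACGTG, which reads the same on both strands and is bound by MYC, MAX and related factors, occurred in 46.5% of 43 windows of the list and in 9.33% of all windows. It was in 13.5% of windows of genes called higher and 7.66% of windows of genes called lower. The ETS motif CCGGAAGT, on either strand, was in 10%, 2.81% and 7.41% of the windows of higher, lower and all genes. Stretches around the E-box, in capitals, follow for 3 of the called factors. UTP20, NAT10 and DDX21, which were not called, also hold an E-box before the start. The percentages count whole windows, and the stretches come only from bases before the start.
EBNA1BP2, chr1:43172782-43172820, minus strand: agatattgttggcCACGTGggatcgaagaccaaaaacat
LYAR, chr4:4290060-4290105, minus strand: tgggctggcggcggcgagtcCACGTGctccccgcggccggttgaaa
UTP4, chr16:69132613-69132648, plus strand: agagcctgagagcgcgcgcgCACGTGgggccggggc

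Host genes of small nucleolar RNAs form a separate list. Their spliced transcripts are mostly non-coding, and the small nucleolar RNAs are cut from the introns. Of 23 tested, 7 were called higher and 1 lower, all 7 were consistently called, and the median was 0.63. GAS5 had 906 and 1165 CPM in the control libraries and 2267 and 2344 CPM at day 3 (log2 fold change 1.15, SE 0.15, edgeR adjusted p = 0.00399). ZFAS1 had 16.8 and 20.1 CPM in the control libraries and 55.6 and 74.4 CPM at day 3 (log2 fold change 1.81, SE 0.18, edgeR adjusted p = 0.00215). SNHG1 had 79.1 and 74.4 CPM in the control libraries and 194 and 195 CPM at day 3 (log2 fold change 1.34, SE 0.11, edgeR adjusted p = 0.00127). SNHG5, SNHG15, SNHG17 and TAF1D make up the 7, and in each the lowest day 3 library stood above the highest control, as in every called rise. SNHG3, the exception, was called lower at -0.52, and lost the call in 5 of the 6 fits. Transcripts of this class are known for starts at a C followed by a run of pyrimidines, a sequence through which mTORC1 controls the translation and decay of ribosomal protein mRNAs. With at least 4 pyrimidines after the first C, 30% of 20 host gene starts, 57.1% of 84 ribosomal protein starts and 5.32% of all starts had this form, which was searched after the values were seen. In the stretches below, 20 bases before and 10 bases from the RefSeq start, capitals mark the unbroken pyrimidines at the start. Of the 6 called higher with a listed start, TAF1D, ZFAS1 and SNHG5 have the run at that start, and SNHG1, GAS5 and SNHG17 do not. SNHG12, SNHG19 and SNHG4, which were not called, have it too. Other starts of these genes were not searched.
TAF1D, chr11:93741486-93741515, minus strand: gggccacggaaatagccaacCCTTTTCTTC
ZFAS1, chr20:49278622-49278651, plus strand: ggttcaggaagccattcgttCTTTCgcgtc
SNHG5, chr6:85678724-85678753, minus strand: tactggctgcgcacttcggtCTTTTacgtc
SNHG1, chr11:62855876-62855905, minus strand: tctccccggggagattcgttCTCatttttc
GAS5, chr1:173869036-173869065, minus strand: gtcgatgccatcatgaattcagatgtgttt

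Of 77 mitochondrial ribosomal protein genes 12 were called higher and 1 lower, of 17 mitochondrial tRNA synthetases 5 were higher and 0 lower, and of 37 translation factors 8 were higher and 0 lower. None of these 25 rises was consistently called. Among 20 cytosolic tRNA synthetases 3 were called higher and 1 lower. Of 37 proteasome subunits 7 were called higher and 0 lower, with a median of 0.40. PSMB9, the interferon-inducible catalytic subunit, had 15 and 27.4 CPM in the control libraries and 58.6 and 69.4 CPM at day 3. Its call (log2 fold change 1.59, SE 0.29, edgeR adjusted p = 0.0192) was lost without either day 3 library. Of the mitochondrial proteins named above, the chaperone HSPA9 had 572 and 534 CPM in the control libraries and 1075 and 1158 CPM at day 3 (log2 fold change 1.01, SE 0.12, edgeR adjusted p = 0.00354). LONP1, the protease, had 427 and 419 CPM in the control libraries and 986 and 997 CPM at day 3 (log2 fold change 1.23, SE 0.11, edgeR adjusted p = 0.00135).

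**Figure D4:**
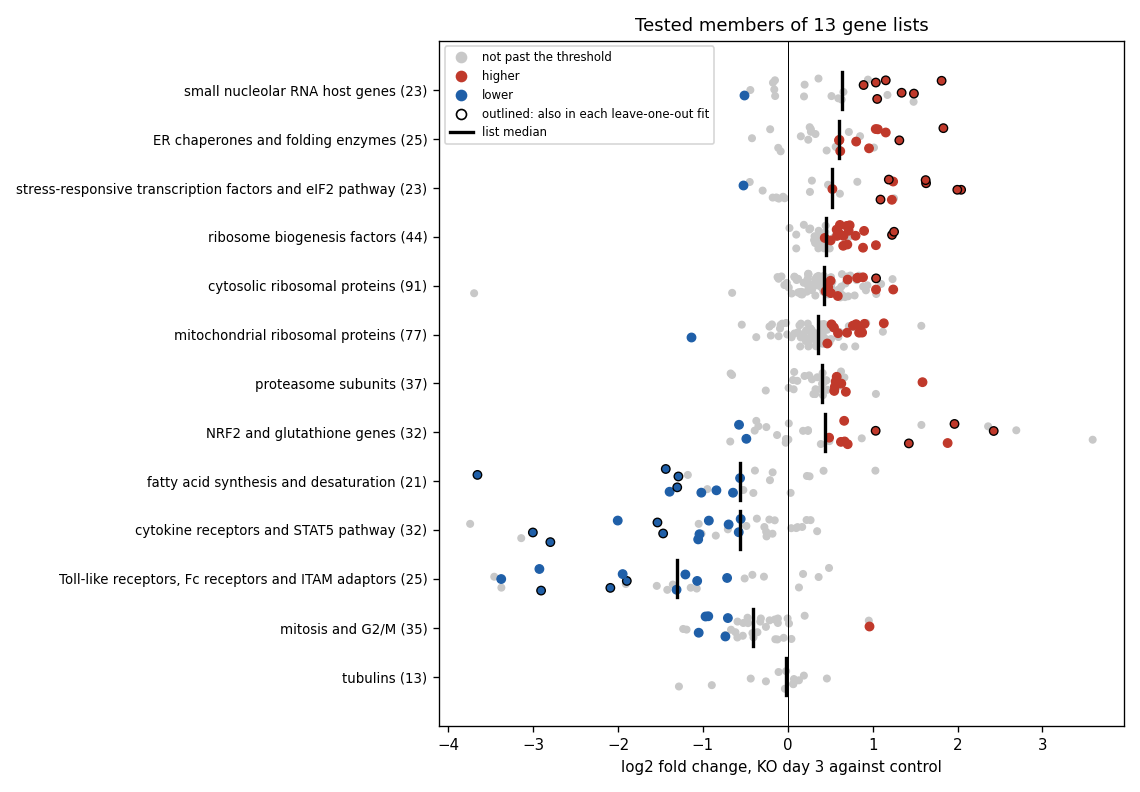
Log2 fold change of each tested member of 13 gene lists at day 3 against control, 1 point per gene, with the list median as a black bar. Red and blue mark genes called higher and lower, and black outlines mark those called in each fit without a library. The ribosome biogenesis factors lie wholly above 0, with a median of 0.45, and the 13 tubulin genes hold no call.

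The enzymes of fatty acid synthesis turn acetyl-CoA into saturated and then unsaturated fatty acids, and many are targets of the SREBP transcription factors. Of 21 tested genes, 9 were called lower and 0 higher, with a median of -0.56, and 4 of the 9 were consistently called. FASN, the fatty acid synthase, had 1234 and 1045 CPM in the control libraries and 472 and 461 CPM at day 3 (log2 fold change -1.29, SE 0.13, edgeR adjusted p = 0.00185). SCD, the stearoyl-CoA desaturase, had 1641 and 1501 CPM in the control libraries and 545 and 614 CPM at day 3 (log2 fold change -1.44, SE 0.13, edgeR adjusted p = 0.00145), and ACSS2, which makes acetyl-CoA from acetate, had 49.3 and 64.2 CPM in the control libraries and 23.6 and 22.4 CPM at day 3. Both day 3 libraries had less than the lowest control in each of these, as in every called fall. SREBF1 and SREBF2, which encode the SREBP factors, were called lower at -0.65 and -1.02. Both lost the call without either day 3 library, and SREBF1 also without control library 1. Of 35 enzymes of glycerolipids, phospholipids and sphingolipids 7 were called lower and 1 higher, and 0 were consistently called. Fatty acid oxidation had 1 of 21 higher and 2 lower, and PPARD, a nuclear receptor that regulates it, went from 126 and 123 CPM to 46.7 and 40.4 CPM (log2 fold change -1.52, SE 0.14, edgeR adjusted p = 0.00141). MYLIP, the ubiquitin ligase that removes the LDL receptor, went from 70.5 and 55.3 CPM to 26 and 23.8 CPM (log2 fold change -1.34, SE 0.17, edgeR adjusted p = 0.00378).

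Of 24 genes of glycolysis and lactate export 4 were called lower and 1 higher, with none consistently called. PKM, the pyruvate kinase, had 1636 and 1515 CPM in the control libraries and 987 and 1021 CPM at day 3 and ENO1, an enolase, had 2112 and 2159 CPM in the control libraries and 3589 and 3530 CPM at day 3. The call of PKM, at a log2 fold change of -0.65, was lost without day 3 library 1 or day 3 library 2. The call of ENO1, at a log2 fold change of 0.74, was lost without day 3 library 1 or day 3 library 2. Of 25 genes of purine and pyrimidine synthesis 4 were called higher and 0 lower. DHODH, the mitochondrial enzyme of pyrimidine synthesis, had 28.7 and 31.9 CPM in the control libraries and 53.7 and 58.6 CPM at day 3. The call of DHODH, at a log2 fold change of 0.89, was lost without day 3 library 1 or day 3 library 2. Of 26 genes of the tricarboxylic acid cycle 2 were called higher and 0 lower. PCK2, the mitochondrial enzyme that makes phosphoenolpyruvate, had 121 and 131 CPM in the control libraries and 216 and 256 CPM at day 3. The call of PCK2, at a log2 fold change of 0.91, was lost without day 3 library 2. Of 18 folate enzymes 3 were called lower and 1 higher, with none consistently called. Of 21 genes of haem synthesis and iron handling 6 were called higher and 2 lower, with HMOX1 and FTH1 consistently called. Of 35 lysosomal genes 6 were called lower and 2 higher, and GLA, the alpha-galactosidase, had 47 and 43.1 CPM in the control libraries and 19.2 and 16.4 CPM at day 3 (log2 fold change -1.34, SE 0.17, edgeR adjusted p = 0.00378). Of 29 autophagy genes 1 was higher and 1 lower, below the background share. GABARAPL2, which coats autophagosomes, had 45.2 and 51.1 CPM in the control libraries and 32.2 and 27.4 CPM at day 3. The call of GABARAPL2, at a log2 fold change of -0.69, was lost without control library 2, day 3 library 1 or day 3 library 2.

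Cytokine receptors pass their signal through JAK kinases to STAT factors, which switch on SOCS and PIM genes. Of 32 tested genes of cytokine receptors and the STAT5 pathway, 11 were called lower and 0 higher, with a median of -0.57, and 4 of the 11 were consistently called. FLT3, the receptor tyrosine kinase that carries an internal tandem duplication in this line, had 1063 and 876 CPM in the control libraries and 341 and 328 CPM at day 3 (log2 fold change -1.54, SE 0.14, edgeR adjusted p = 0.00135), and KIT, the receptor of stem cell factor, had 18.2 and 10.1 CPM in the control libraries and 2.29 and 1.21 CPM at day 3. SOCS1, an inhibitor of JAK kinases, had 105 and 85.5 CPM in the control libraries and 9.49 and 17.9 CPM at day 3 (log2 fold change -2.80, SE 0.35, edgeR adjusted p = 0.00725), and PIM2, a kinase induced by STAT5, had 125 and 119.5 CPM in the control libraries and 44.8 and 43.4 CPM at day 3 (log2 fold change -1.47, SE 0.17, edgeR adjusted p = 0.00329). In each of these 4 genes the highest day 3 library lay below the lowest control, as in every called fall. Of 25 Toll-like receptors, Fc receptors and ITAM adaptors, 10 were called lower and 0 higher, with a median of -1.31, and 3 of the 10 were consistently called. TLR4, the lipopolysaccharide receptor, had 27.8 and 17.1 CPM in the control libraries and 3.81 and 2.14 CPM at day 3, TLR2, which senses lipoproteins, had 65.5 and 52 CPM in the control libraries and 14.3 and 13.2 CPM at day 3 (log2 fold change -2.09, SE 0.18, edgeR adjusted p = 0.0013), and FCGR2A, a receptor for IgG, had 54.4 and 51.1 CPM in the control libraries and 11.5 and 16.9 CPM at day 3. In bulk RNA fewer cells of a kind and less RNA per cell cannot be told apart.

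Of 27 integrins and selectin-system genes 6 were called lower and 0 higher, and 3 of the 6 were consistently called. The tetraspanin CD82 went from 42.5 and 61.5 CPM to 8.97 and 10 CPM (log2 fold change -2.46, SE 0.22, edgeR adjusted p = 0.00135), the adhesion molecule PECAM1 from 217 and 134 CPM to 41.7 and 44.5 CPM (log2 fold change -2.03, SE 0.22, edgeR adjusted p = 0.00315) and the laminin-binding integrin ITGA7 from 104 and 121 CPM to 46.3 and 47.5 CPM. Chemokines and their receptors had 5 of 20 lower and 0 higher, and CXCR4, the receptor of CXCL12, had 212 and 166 CPM in the control libraries and 74.7 and 104 CPM at day 3 and lost its call without control library 1 or without day 3 library 1. Semaphorins, plexins and other guidance genes moved both ways, with 2 of 37 higher and 2 lower. PLXND1, a plexin, went from 628 and 519 CPM to 202 and 199.6 CPM (log2 fold change -1.51, SE 0.13, edgeR adjusted p = 0.0013), EPHA1, an ephrin receptor, from 35.3 and 30.4 CPM to 9.17 and 7.15 CPM, and UNC5B, a netrin receptor, in the opposite direction from 1.22 and 0.911 CPM to 9.17 and 6.76 CPM (log2 fold change 2.91, SE 0.33, edgeR adjusted p = 0.00307). Of 36 proteoglycan and matrix genes 8 were called lower and 2 higher. The membrane protease MMP14 went from 314 and 289 CPM to 154 and 132 CPM, while SDC3, a syndecan with 6 and 4 counts in the controls, went from 0.386 and 0.192 CPM to 11.1 and 5.44 CPM. SDC3 did not pass with limma on log2(FPKM + 1) (adjusted p = 0.0963).

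Of 41 actin and cortical genes 6 were called lower and 3 higher, and 2 of these 9 were consistently called. GSN, the filament-severing protein gelsolin, had 376 and 318 CPM in the control libraries and 102 and 86.5 CPM at day 3 (log2 fold change -1.88, SE 0.15, edgeR adjusted p = 0.00113). Both day 3 libraries lay far below both controls. None of 13 tubulins was called by edgeR, with 2 at an unadjusted p under 0.05, 2 called by DESeq2 and 0 by limma. Exons of GSN overlap other genes.

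Of 47 ion channel genes 5 were called higher and 5 lower. HVCN1, the proton channel that supports the oxidative burst of phagocytes, went from 55.6 and 57.9 CPM to 17.3 and 18.9 CPM (log2 fold change -1.65, SE 0.23, edgeR adjusted p = 0.00588), and KCNE1, a potassium channel subunit, from 5.91 and 7.62 CPM to 22.9 and 23.7 CPM (log2 fold change 1.78, SE 0.27, edgeR adjusted p = 0.00799). Of 25 genes of cyclic AMP signalling 3 were called lower, and PRKAR2B, a regulatory subunit of protein kinase A, went from 46.7 and 29 CPM to 11.1 and 6.65 CPM (log2 fold change -2.09, SE 0.32, edgeR adjusted p = 0.00912). Calcium handling, the setting in which CaMKII works, had 2 of 38 higher and 2 lower, a share near the background. STIM1, the ER calcium sensor, had 56.2 and 45.5 CPM in the control libraries and 103 and 79.6 CPM at day 3 and lost its call without control library 2 or day 3 library 1. ATP2B4, a calcium pump of the plasma membrane, had 144 and 138 CPM in the control libraries and 87 and 73.8 CPM at day 3 and lost it without day 3 library 2. ARRDC3, an alpha-arrestin that sends receptors to degradation, had 5 and 6 counts in the controls and 148 and 99 at day 3, or 0.321 and 0.288 CPM in the control libraries and 7.71 and 5.44 CPM at day 3 (log2 fold change 4.41, SE 0.39, edgeR adjusted p = 0.00135), and its relative TXNIP had 281 and 275 CPM in the control libraries and 192 and 178 CPM at day 3 and lost its call without either day 3 library.

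Of 32 MAPK feedback and immediate early genes 3 were called lower and 1 higher. SPRY2, an inhibitor of receptor tyrosine kinase signalling, had 109 and 94.8 CPM in the control libraries and 58.6 and 63.6 CPM at day 3. The call of SPRY2, at a log2 fold change of -0.74, was lost without day 3 library 1 or day 3 library 2. Of 23 NF-kB genes 1 was called lower, CXCL8, the neutrophil chemokine, which had 5.08 and 4.75 CPM in the control libraries and 0.886 and 1.59 CPM at day 3. The call of CXCL8, at a log2 fold change of -1.98, was lost without control library 1, day 3 library 1 or day 3 library 2. Of 29 genes of the Notch, WNT and Hippo pathways 2 were called lower, and NOTCH2, a receptor, had 201 and 197 CPM in the control libraries and 139 and 131 CPM at day 3. The call of NOTCH2, at a log2 fold change of -0.56, was lost without day 3 library 1 or day 3 library 2. Of 34 PI3K, AKT and mTORC1 regulators 2 were called higher and 3 lower, and SESN2 alone was consistently called. Of 16 clock genes 1 was higher and 2 lower, and BHLHE40, a repressor of the clock, had 105 and 87.6 CPM in the control libraries and 46.5 and 51.7 CPM at day 3. The call of BHLHE40, at a log2 fold change of -0.97, was lost without day 3 library 1. Of 36 splicing factors 2 were called higher and 0 lower, and TRA2B, a splicing activator, had 238 and 231 CPM in the control libraries and 351 and 350.5 CPM at day 3. The call of TRA2B, at a log2 fold change of 0.58, was lost without day 3 library 1 or day 3 library 2.

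MOLM-13 carries a KMT2A fusion, which drives HOXA genes and MEIS1. Of 36 HOXA and leukaemia transcription factors 5 were called lower and 0 higher, 13.9% in all, and none of the 5 (CEBPD, RUNX1, WT1, ZEB2 and SPI1) was consistently called. RUNX1 had 582 and 435 CPM in the control libraries and 252 and 259 CPM at day 3 and WT1 had 66.9 and 61.1 CPM in the control libraries and 33.5 and 34.6 CPM at day 3, and each lost its call without either day 3 library. HOXA9 and MEIS1 did not pass, at -0.15 (edgeR adjusted p = 0.857) and 0.20 (edgeR adjusted p = 0.511). Of 33 Polycomb and KMT2A complex genes 3 were called higher and 1 lower. BMI1, a Polycomb ring protein, had 86.4 and 76.2 CPM in the control libraries and 142 and 159 CPM at day 3 and lost its call without day 3 library 2. PSIP1, the chromatin tether LEDGF of KMT2A complexes, had 48.6 and 37.2 CPM in the control libraries and 95.1 and 79.5 CPM at day 3 and lost its call without day 3 library 1. The DNA methyltransferases DNMT1 and DNMT3B were called lower at -0.64 and -0.96, without a call when control library 1 or either day 3 library was left out, and for DNMT3B also without either day 5 library. MYC had 614 and 603 CPM in the control libraries and 892 and 1112 CPM at day 3 (log2 fold change 0.72, SE 0.14, edgeR adjusted p = 0.0169) and lost its call without day 3 library 2. Numbered zinc finger genes, the largest list, had 9 of 399 called higher and 11 lower, 5.01% in all, below the 11.7% of all genes. ZNF219 fell from 32.4 and 28.6 CPM to 7.97 and 9.51 CPM and ZNF385A, which also binds RNA, from 106 and 122 CPM to 49.1 and 55.5 CPM. None of 25 replication-dependent histone genes was called by edgeR, with 5 at an unadjusted p under 0.05, 1 called by DESeq2 and 0 by limma on log2(FPKM + 1). Their mRNAs mostly lack a poly-A tail, and the libraries were made from mRNA caught on poly-T beads.

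Of 40 G1/S genes 1 was called higher and 5 lower, and of 35 mitotic genes 1 and 5, with medians of -0.15 and -0.40 and no consistently called gene. MKI67, a marker of proliferating cells, had 496 and 229.5 CPM in the control libraries and 181 and 136 CPM at day 3. Control library 1 was more than 2-fold above control library 2, and the difference did not pass (log2 fold change -1.19, SE 0.44, edgeR adjusted p = 0.156). Among 17 BCL2 family genes BMF, which promotes apoptosis, went from 76.9 and 72 CPM to 32.7 and 29.5 CPM (log2 fold change -1.26, SE 0.14, edgeR adjusted p = 0.0026), and BCL2, which prevents it, had 167 and 178 CPM in the control libraries and 81.5 and 99.8 CPM at day 3 and lost its call without day 3 library 1. CFLAR, an inhibitor of caspase 8, went from 129.5 and 136 CPM to 66.2 and 65 CPM (log2 fold change -1.02, SE 0.12, edgeR adjusted p = 0.00311), the consistently called gene among 3 lower and 0 higher of 29 in the caspase and death receptor list. Of 26 p53 targets 3 were called higher and 0 lower, GDF15 and SESN2 among them. This was 11.5% in all, near the 11.7% of all genes. CDKN1A, the p53 target that blocks cyclin-dependent kinases, had 461 and 891 CPM in the control libraries and 583 and 1127 CPM at day 3 (edgeR adjusted p = 0.767).

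Interferon-stimulated genes set the day 3 libraries apart from each other. They encode antiviral proteins and are switched on through the type I interferon receptor. Of 43 tested, 5 were called higher and 1 lower, 0 were consistently called, and the median log2 fold change was 1.82, also with the 2 members at 0 counts in the controls set to the floor of 3 counts per library. Day 3 library 2 lay above library 1 in 42 of the 43, with a median ratio of 2.99, against 1.01 over all tested genes. Their summed level was 1440 and 1480 CPM in the controls, 1770 in day 3 library 1 and 4340 in day 3 library 2. Library 1 was above both controls in 34 genes and library 2 in 41. IFIT2 had 2.12 and 2.73 CPM in the control libraries and 29.1 and 88.6 CPM at day 3 and ISG15 had 10.7 and 15.1 CPM in the control libraries and 51.4 and 205 CPM at day 3. For both genes the day 3 libraries differed from each other by more than 2-fold, and ISG15 did not pass (edgeR adjusted p = 0.115). IFIT2 was called (log2 fold change 4.58, SE 0.76, edgeR adjusted p = 0.0268) and lost the call without either control library. DHX58, an RNA helicase of the RIG-I family, had 1.61 and 2.16 CPM in the control libraries and 12.5 and 22.4 CPM at day 3 (log2 fold change 3.20, SE 0.48, edgeR adjusted p = 0.00892) and lost it without control library 1. Without day 3 library 2 the number called higher was 2, and without library 1 it was 7.

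**Figure D5:**
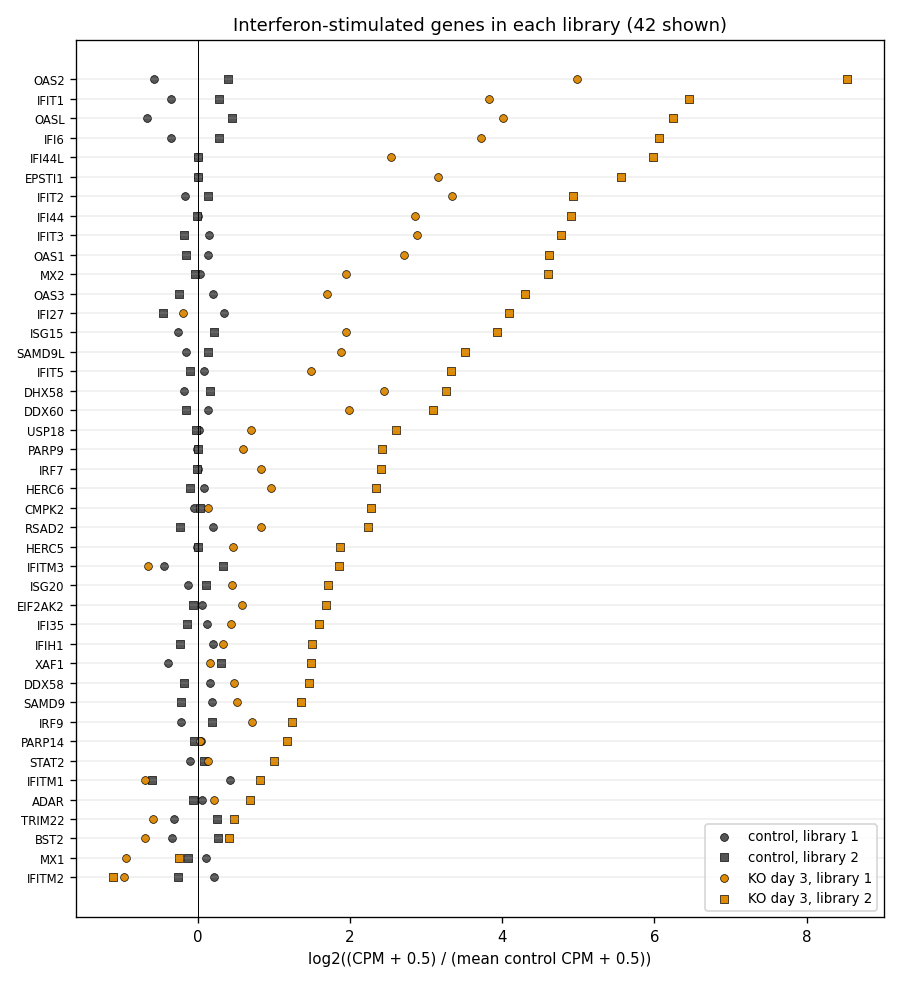
The level of 42 of the 43 tested interferon-stimulated genes in each library, as log2 of (CPM + 0.5) over (mean control CPM + 0.5), with controls in grey and day 3 in orange, circles for library 1 and squares for library 2. Day 3 library 2 lies to the right of day 3 library 1 in 41 rows.

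The core of the interferon-stimulated response element, GAAANNGAA on either strand, occurred in 64.4% of 45 windows of this list and in 6.87% of all windows. Many members that were not called also hold it before the start, among them OAS3, IFIH1, IFIT3, MX1 and ISG15. It is shown for 2 of the called genes with its letters in capitals.
DDX60, chr4:168318812-168318860, minus strand: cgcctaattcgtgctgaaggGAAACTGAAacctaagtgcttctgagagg
IFIT5, chr10:89414504-89414552, plus strand: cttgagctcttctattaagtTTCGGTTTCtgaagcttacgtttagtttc

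Antigen presentation by MHC class I had 4 of 22 genes called higher and 0 lower, and none was consistently called. B2M, the light chain, had 596 and 549 CPM in the control libraries and 835 and 1012 CPM at day 3, and TAP1, a peptide transporter, had 24.2 and 25.4 CPM in the control libraries and 42.6 and 69.8 CPM at day 3. The call of TAP1 was lost without either control library or day 3 library 2, and that of B2M without any of the 4 libraries compared. The sensors of nucleic acids had 1 of 17 called higher, DHX58, and 2 lower.

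The identity of the cells was checked with markers. SPI1 and CD33, which are expressed in monocytic cells, had 282 and 351 CPM in the control libraries and 182 and 210.5 CPM at day 3 and 48.1 and 55.9 CPM in the control libraries and 47.5 and 55.2 CPM at day 3. CD14 was low, with 0.964 and 2.97 CPM in the control libraries and 0.365 and 0.990 CPM at day 3. No erythroid marker had enough counts to be tested. The 6 tested lymphoid markers summed to 151 and 120 CPM in the control libraries and 82.9 and 78.3 CPM at day 3, and 3 of them were called lower, none of them consistently. The 3 tested mast cell and basophil, 3 epithelial and 1 stromal markers summed to at most 5.33, 34.2 and 14.4 CPM in any library, and 0 of them were called. Of 5 megakaryocyte markers NFE2, a factor also active in myeloid cells, was called lower, with 91.4 and 93.4 CPM in the control libraries and 29.6 and 29 CPM at day 3 (log2 fold change -1.66, SE 0.18, edgeR adjusted p = 0.0025). The 15 tested monocyte and leukaemia identity markers summed to 2950 and 3570 CPM in the control libraries and 1120 and 1230 CPM at day 3, with 7 called lower and 0 higher. The part of other cells in the results above was not tested.

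The calls were also counted by gene class, level and length, as a description. Of 12021 tested protein-coding genes 6.56% were called higher and 6.78% lower, and of 1706 long non-coding genes 1.52% and 2.11%. The non-coding genes had a median level of 1.26 CPM against 28.3 CPM, and the share of calls rose with the level, from 0.315% higher and 0.734% lower under 1 CPM to 10.1% and 10.2% above 100 CPM. NRAV, a non-coding RNA described as a regulator of antiviral genes, went from 1.67 and 2.11 CPM to 9.12 and 9.40 CPM (log2 fold change 2.28, SE 0.34, edgeR adjusted p = 0.00761). LINC02019, AC008894.2 and OLMALINC, by contrast, had lower values at day 3, with log2 fold changes of -2.64, -2.17 and -1.59. AL355922.1 had 275 and 220.2 CPM in the control libraries and 12.7 and 17.9 CPM at day 3 (log2 fold change -4.01, SE 0.21, edgeR adjusted p = 0.000208). By summed exon length, genes of 1 to 2 kb were called higher in 5.95% and lower in 2.94%, and genes over 8 kb in 4.09% and 7.78%. The part of length in the gene groups above was not tested.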

How the data were processed

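RNA-seq libraries of MOLM-13 cells were taken from 1 table of 24878 genes that holds read counts and FPKM for 6 libraries. Per the submitters' processing notes, the authors used HISAT2, HTSeq 0.11.2, DESeq2 1.26.0 and GRCh38, with no role or order given. The labels state that mRNA was captured on poly-T beads, and strand is not given in the sources used here. Gene names and IDs of the table matched GENCODE 29 for all 24878 genes, and coordinates are from that release.

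The deposited read counts, as the authors counted them per gene without normalization, were fitted with edgeR 4.0.16 in R 4.3.3. Genes were kept by filterByExpr (minimum count 10, minimum total 15), scaled with TMM factors, and tested with the robust quasi-likelihood test in a fit of all 6 libraries in 3 groups, which share 1 estimate of the spread. A gene was called at a Benjamini-Hochberg adjusted p under 0.05, over 14601 genes. A prior count of 0.125 was added for log2 fold changes, and the SE is the log2 fold change divided by the square root of F. With 3 residual degrees of freedom the spread of a gene rests in part on that of other genes. The FPKM values deposited by the authors were used for levels per length and for limma 3.58.1 on log2(FPKM + 1). Their implied lengths matched summed exon lengths for 99.6% of 19864 genes. Total counts of the 4 libraries were between 15456770 and 21081298. Intervals and floors cover counting error only. The test was tried on simulated data made from the real genes' means and library sizes, where false calls made up a larger share of the calls than the threshold.

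Genes were named by rule: from those called in every fit without a library, at a mean of at least 5 CPM and with both day 3 libraries on 1 side of both controls, the 20 largest rises and falls and the 10 largest FPKM gains and losses of coding genes (clone-based, LOC, numbered open reading frame, antisense and pseudogene names left out), up to 5 non-coding genes each way at a mean of at least 2 CPM, and up to 5 members of each gene list (where a list had none, up to 2 called members). Other list members were named after their values were seen. The gene lists, the rule and the comparison were chosen with earlier results of these data known. RefSeq promoter windows (GRCh38.p14) were matched by symbol for 10453 of 14601 genes. The ER stress element and the start sequence were searched after the data were seen. In the sample titles library 1 of every group carries the letter A and library 2 the letter B. The labels do not say whether this letter marks a shared culture or batch, and the main fit did not model it. Alternatives were other scalings and filters, DESeq2 1.42.0, limma on FPKM, only the 4 libraries, a replicate block and each library left out. Some genes and 1 gene list are not reported here.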

Additional observations from a re-analysis of the deposited data

How the results depend on the processing

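Against 1710 calls (835 higher, 875 lower), leaving out 1 library gave 282 to 1906 calls, 120 to 1069 higher and 162 to 863 lower. Without a filter on low counts there were 2925 (1425 and 1500), with DESeq2 2591 (1252 and 1339), and with limma on log2(FPKM + 1) without a filter 254 (83 and 171), each over its own number of tested genes. With the replicate number as a block the counts were 4064 (1990 and 2074). The sample titles give same-numbered libraries a shared letter, A or B, but the labels do not say that it marks a shared culture. Deviations of same-numbered control and day 3 libraries from their group means correlated at 0.355 over 14601 genes, and in the comparisons with the day 5 libraries at 0.303 and 0.347, with only 2 numbers. The other settings (RLE and upper-quartile factors, 5 CPM in 2 libraries, the 4 libraries alone, limma with a filter on FPKM) gave 1294 to 1744 calls. The share of rises among the calls was 56.1% without control library 2 and 32.7% in limma without a filter. All 225 consistently called genes were called with DESeq2, and 169 in limma without a filter. Over 169 named genes, 2480 of 2698 values kept direction and side of the threshold, 217 lost the call, and CAMK2D went from -0.59 without control replicate 2 to 0.068 without control replicate 1 (edgeR adjusted p = 0.903). The cause of these differences was not tested. With 2 libraries a group, genes under 1 CPM were seldom called, and a difference there was mostly not detectable at this depth.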

Other observations

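Of the 1710 called genes, 1310 were in none of the 78 gene lists, and 135 of the 225 genes called with every library left out in turn were in none. The genes below were picked from those 135 after their values were seen, so they form no tested group. G protein-coupled receptors for small ligands stood among the falls. SUCNR1, the succinate receptor, had 81.6 and 41.4 CPM in the control libraries and 12 and 11.1 CPM at day 3 (log2 fold change -2.41, SE 0.32, edgeR adjusted p = 0.00594). PTAFR, the receptor of platelet-activating factor, had 63.9 and 45.7 CPM in the control libraries and 13.2 and 10.2 CPM at day 3, and RXFP1, a relaxin receptor, had 35.5 and 35.7 CPM in the control libraries and 8.71 and 9.51 CPM at day 3. AVPR2, a vasopressin receptor, and TBXA2R, the thromboxane receptor, had log2 fold changes of -2.17 and -1.05. Protein tyrosine phosphatases were there as well: PTPN3 had 102 and 85 CPM in the control libraries and 12.7 and 16.6 CPM at day 3 (log2 fold change -2.68, SE 0.19, edgeR adjusted p = 0.000519), PTPRE had 114 and 73.8 CPM in the control libraries and 25.3 and 27.4 CPM at day 3, and PTPN12 had 112 and 88.1 CPM in the control libraries and 47.5 and 42.3 CPM at day 3. The tyrosine kinase SRC had 15.7 and 17.1 CPM in the control libraries and 4.22 and 3.24 CPM at day 3, and F3, the tissue factor that starts coagulation, had 257 and 192 CPM in the control libraries and 67.5 and 54.5 CPM at day 3. DRAM1, a lysosomal membrane protein, had 114 and 151 CPM in the control libraries and 15.4 and 25.4 CPM at day 3 (log2 fold change -2.70, SE 0.26, edgeR adjusted p = 0.0025). ZFP36L2, which promotes the decay of AU-rich mRNAs, had 1225 and 968 CPM in the control libraries and 356 and 405 CPM at day 3, and IL17RA, a receptor subunit of interleukin 17, had 526 and 593 CPM in the control libraries and 166 and 224 CPM at day 3.

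Among the rises outside the lists, 3 further genes of ribosome assembly were found. PDCD11, needed for pre-rRNA processing, had 250.4 and 252 CPM in the control libraries and 492 and 529.5 CPM at day 3 (log2 fold change 1.02, SE 0.11, edgeR adjusted p = 0.00256), RPF2 had 52.2 and 48.7 CPM in the control libraries and 97.1 and 107 CPM at day 3, and LAS1L had 60.8 and 64.2 CPM in the control libraries and 119 and 139 CPM at day 3. UFL1 and UFSP2, the ligase and a protease of the ubiquitin-like modifier UFM1, had log2 fold changes of 1.08 and 1.77. CCPG1, a receptor for autophagy of the ER, had 10.5 and 9.68 CPM in the control libraries and 27.9 and 25.7 CPM at day 3. GFPT1, the first enzyme of the hexosamine pathway, had 45.7 and 39.5 CPM in the control libraries and 89.1 and 90.8 CPM at day 3 (log2 fold change 1.08, SE 0.13, edgeR adjusted p = 0.00358). HOXB9, a homeobox factor outside the HOXA cluster, had 8.74 and 9.73 CPM in the control libraries and 26.7 and 31.5 CPM at day 3 (log2 fold change 1.65, SE 0.18, edgeR adjusted p = 0.0025). Exons of UFL1, UFSP2 and CCPG1 overlap those of other genes.

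A few genes had 0 counts in a whole group and were still called with every library left out. HNF4A, a nuclear receptor known from liver, had 0 counts in each control and 33 and 36 counts at day 3. TENM4, a teneurin of the cell surface, had 0 counts in each control and 64 and 28 at day 3. In the other direction MEGF10, an engulfment receptor, had 44 and 78 counts in the controls and 0 in each day 3 library, and TRGC2, a T-cell receptor gamma constant gene, had 48 and 68 counts and then 0. Where 0 reads were counted, up to 3 counts per library could have been missed, or 0.194 CPM in the shallowest library, by counting error alone.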
